A study of Drosophila melanogaster with 4 samples.

Results

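The Hox gene complexes of Drosophila melanogaster carried few Su(Hw) peaks in whole embryos aged 16 to 24 h. Binding of Su(Hw), short for Suppressor of Hairy-wing, was profiled by ChIP-seq, in which DNA bound to the protein is immunoprecipitated and sequenced, and the peaks were deposited as 1 list of 4993 intervals for the whole series. Intervals were taken by position on chromosome arm 3R in FlyBase release 5: any overlap with 2480000 to 2840000 was assigned to the Antennapedia complex (lab, pb, Dfd, Scr, ftz and Antp), and any overlap with 12480000 to 12810000 to the bithorax complex (Ubx, abd-A and Abd-B). The first window is 360 kb long and held 6 intervals, and the second is 330 kb long and held 5. These 11 intervals are 0.944% of the 1165 on 3R, whereas the windows make up 2.49% of the span of 3R between its first and last interval.

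The labels list 2 ChIP libraries, made with an affinity-purified rabbit polyclonal antibody against Su(Hw), and 2 input libraries of the same embryos. All 4 came from the strain written Y cn bw sp, with the alleles y[1], cn[1], bw[1] and sp[1]. The genotype also holds oc[R3.2], CG33964[R4.2] and lab[R4.2], as well as LysC[1], Gr22b[1], Rh6[1], GstD5[1], Gr22d[1] and MstProx[1]. The gene lab, which lies in the Antennapedia complex, is thus itself named in the genotype of every library. Whole embryos were fixed, so each peak averages over cells in which a given Hox gene is on and cells in which it is off. The list has no value per library, and therefore no replicate spread and no read depth stand behind any of the values below. Each test below counts intervals, and an interval is not a replicate.

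Hox genes encode homeodomain transcription factors that give the segments of the body their identity, and they lie on the chromosome in the order in which they act from head to tail. In the fly they are split into 2 complexes, and their long regulatory regions keep a gene silent, under Polycomb group proteins, in the segments where it is not needed. In the bithorax complex, boundary elements separate the regulatory domains that serve different segments. Su(Hw) has zinc fingers with which it recognises DNA, is best known from the gypsy retrotransposon, where it stops enhancers from acting across the insulator, and also binds many sites outside gypsy.

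In the Antennapedia complex, lab and Dfd act in the head, pb in the adult mouthparts, Scr in the labial segment and the first thoracic segment, and Antp in the thorax, while ftz is a pair-rule gene of segmentation. In the bithorax complex, Ubx acts in the posterior thorax and anterior abdomen, abd-A in the abdomen and Abd-B in the posterior abdomen. In the RefSeq annotation of Release 6, a later assembly used here for names and order only, the genes followed each other along 3R in the order lab, pb, Dfd, Scr, ftz, Antp and then Ubx, abd-A, Abd-B. Between lab and pb it listed 8 other protein-coding genes, and between pb and Dfd it listed 5, among them zen and bcd. No other coding gene separated Dfd, Scr, ftz and Antp. Between Ubx and abd-A it listed 2, and between abd-A and Abd-B 1. No interval was assigned to a gene or to a part of one, because no annotation of release 5 was used.

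The 6 intervals of the Antennapedia complex were all single, well separated peaks, and 2 of them were strong. The score is the value that the authors' peak caller gave each interval, and it serves here only to rank intervals within this list. From low to high coordinate, the first interval, 3R from 2508896 to 2510716, was 1820 bp wide and had a score of 209.87. The second, from 2535240 to 2535720, was 480 bp wide and scored 50.73. The third, from 2646271 to 2646476, was 205 bp wide and scored 8.49. It was the weakest of all 11, and only 4.64% of the intervals on 3R scored as low or lower.

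The fourth, from 2737090 to 2738854, was the strongest of the Antennapedia complex, with a width of 1764 bp and a score of 363.82. It ranked 92nd of 1165 on 3R and 430th of 4993 in the list. The fifth, from 2787749 to 2788493, was 744 bp wide and scored 29.05, and the sixth, from 2803148 to 2803625, was 477 bp wide and scored 21.02. The first and the fourth interval, the strong ones, thus stood among weaker ones, and no interval on 3R with a higher score than the fourth lay within 286 kb of it.

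The 5 intervals of the bithorax complex lay in only 3 places, and 1 of them was among the strongest on the arm. The first interval, 3R from 12506807 to 12507921, was 1114 bp wide and scored 47.13. The second, from 12623769 to 12625345, was 1576 bp wide and scored 666.63, the 13th highest score of 1165 on 3R and the 64th highest of 4993 in the list. No interval on 3R with a higher score lay within 1997 kb of it. The third, from 12625670 to 12625875, was a weak companion of the second, 325 bp further on, with a width of 205 bp and a score of 12.17.

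The other 2 intervals lay at the upper edge of the bithorax window. The fourth, from 12808145 to 12808440, was 295 bp wide and scored 15.96. The fifth, from 12808713 to 12811064, began 273 bp further on, was 2351 bp wide, scored 161.99 and reached past the edge of the window. A window narrowed by 20 kb at each end therefore held 3 intervals, while the Antennapedia window narrowed in the same way kept 6.

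**Figure D1:**
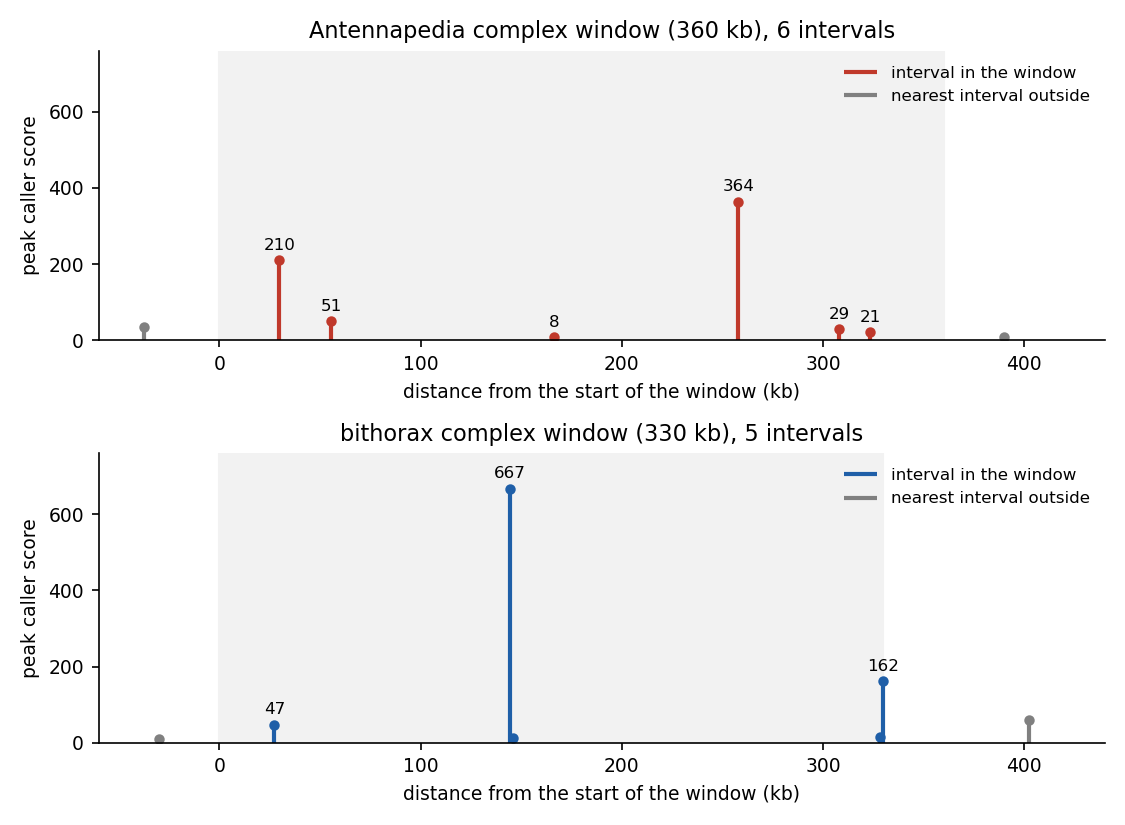
Score of each interval (vertical axis, linear, no unit) against its distance from the start of the window in kb (horizontal axis), for the Antennapedia complex above and the bithorax complex below. The shaded span is the window, coloured stems are its intervals and grey stems the nearest interval on each side outside it. The highest stems are 363.82 and 666.63, and the long empty run of the bithorax window measures 182 kb.

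The upper edge of the bithorax window ran through the fifth interval of that complex, while the other edges of the windows lay clear of any peak. Below the Antennapedia window, the nearest interval outside, from 2442376 to 2443134, scored 35.27 and ended 36.9 kb from the edge, and the first interval inside began 28.9 kb from it. Above this window, the last interval inside ended 36.4 kb from the edge and the nearest outside, with a score of 9.11, began 29.9 kb beyond it. Below the bithorax window, the nearest interval outside scored 10.69 and lay 29.7 kb away, and the first inside began 26.8 kb from the edge. Above this window, the fifth interval ended past the edge, at 12811064, and the next interval outside scored 59.36 and lay 72.1 kb away. Widening both windows by 20 kb at each end added no interval.

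Both complexes held fewer peaks per length than the rest of 3R. The Antennapedia complex had 16.7 and the bithorax complex 15.2 intervals per Mb, against 42.7 per Mb over the other 27.0 Mb of 3R, where 1154 intervals lay. At the density of the rest of the arm, 15.4 and 14.1 intervals would have fallen in the windows in place of 6 and 5. The ratio to the rest of 3R was 0.391 for the Antennapedia complex (95% interval 0.143 to 0.853; two-sided exact binomial test, adjusted p = 0.0201). It was 0.355 for the bithorax complex (95% interval 0.115 to 0.831; two-sided exact binomial test, adjusted p = 0.0201). The complexes could not be told apart from each other, with a ratio of Antennapedia over bithorax of 1.10 (95% interval 0.280 to 4.56; exact test, adjusted p = 1), an interval that leaves room for a difference of several fold either way. After joining within 1 kb that ratio was 1.83 (95% interval 0.392 to 11.3; exact test, adjusted p = 0.512).

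These tests take intervals as independent, and peak numbers on 3R varied more than that. Over 73 non-overlapping stretches of 360 kb on the rest of 3R, the variance of the number of intervals was 2.52 times its mean, and over 80 stretches of 330 kb it was 2.24 times. When intervals whose edges lay at most 1 kb apart were joined, the Antennapedia complex no longer passed (ratio 0.521, exact test, adjusted p = 0.20), whereas the bithorax complex did (ratio 0.284, exact test, adjusted p = 0.0372). The variance of the number of joined regions was still 1.38 times its mean in stretches of 360 kb and 1.18 times in stretches of 330 kb. After joining within 10 kb, the bithorax complex did not pass either (ratio 0.431, exact test, adjusted p = 0.529).

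Set beside stretches of their own length, the complexes were near the bottom in number. The 360 kb stretches held 15.2 ± 6.20 intervals (SD, 73 stretches), and 3 of them, or 4.11%, held 6 or fewer. The Antennapedia complex thus lay 1.49 SD below the mean. The 330 kb stretches held 14.0 ± 5.60 intervals (SD, 80 stretches), and 2 of them, or 2.5%, held 5 or fewer, which put the bithorax complex 1.61 SD below the mean. After joining within 1 kb, the bithorax complex held 3 regions, as few as the poorest of the 80 stretches. The Antennapedia complex held 6 regions, and 7 of 73 stretches held 6 or fewer.

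With stretches laid from the first interval of 3R, those as poor as the Antennapedia complex lay in the part of the arm with the lowest coordinates. The 3 of them ran from 106946 to 466946, from 826946 to 1186946 and from 1186946 to 1546946, with 3, 6 and 4 intervals. When the outermost 5% of the span was left out at each end, none of 65 stretches of 360 kb held 6 or fewer, and 2 of 70 stretches of 330 kb, or 2.86%, held 5 or fewer, a comparison added after the values were seen. Of the 2 stretches as poor as the bithorax complex, 1 lay in that same part, from 106946 to 436946, with 3 intervals, and the other near the far end, from 25516946 to 25846946, with 4. With the stretches of 2L, 2R, 3L and X included, also added later, 29 of 319 stretches held as few as the Antennapedia complex (9.09%) and 25 of 347 as few as the bithorax complex (7.20%).

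The stretches of equal length beside each complex held more intervals than the complex itself. Next to the Antennapedia complex, the stretch below held 23 intervals and the stretch above 16, and the next ones out held 26 and 17. Next to the bithorax complex, the stretch below held 18 intervals and the stretch above 9, and the next ones out held 17 and 18. The 9 include the fifth interval of the bithorax complex itself, which reaches past the upper edge of the window. The fewest of these 8 numbers, 9, was in the stretch directly above the bithorax complex. These neighbours were set beside the complexes after the values were seen, and the differences were not tested.

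Peaks also covered little of either complex. Intervals took up 1.53% of the Antennapedia window and 1.36% of the bithorax window, against 4.91% of the rest of 3R. In 360 kb stretches, a mean of 4.88 ± 2.56% (SD) was covered, and 1 of 73 had as little as the Antennapedia complex. In 330 kb stretches, a mean of 4.90 ± 2.38% was covered, and 3 of 80 had as little as the bithorax complex. The Antennapedia complex lay 1.31 SD and the bithorax complex 1.49 SD below the mean.

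**Figure D2:**
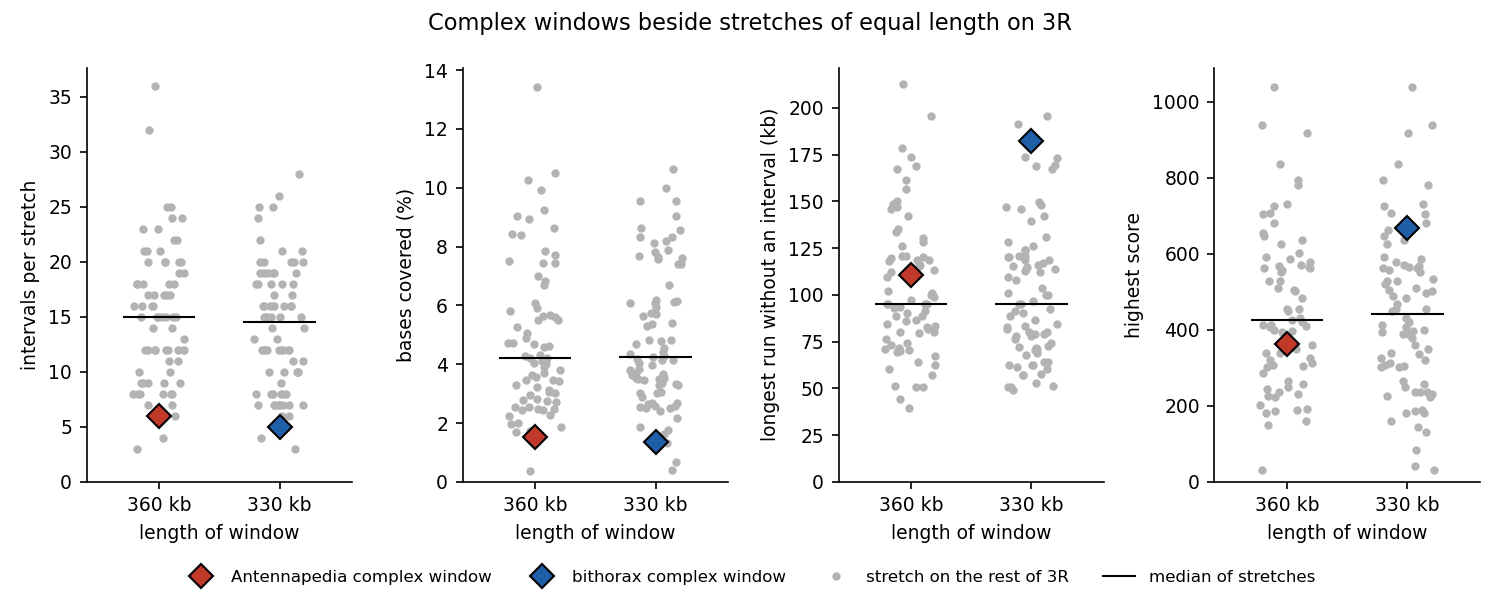
Number of intervals, percent of bases covered, longest run without an interval in kb and highest score (vertical axes, linear from 0) for the Antennapedia complex (red diamond) and the bithorax complex (blue diamond), beside stretches of 360 and 330 kb on the rest of 3R (grey points, line at their median). The diamonds lie near the bottom for number (6 and 5) and coverage (1.53% and 1.36%), and the bithorax diamond lies near the top for the longest empty run (182 kb).

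Strong peaks were not missing from either complex. In the Antennapedia complex, 2 of 6 intervals scored 100 or more (33.3%, exact Clopper-Pearson 95% interval 4.33 to 77.7%), and in the bithorax complex 2 of 5 did (40%, 5.27 to 85.3%), against 28.9% of the 1154 intervals on the rest of 3R. These intervals cover counting error only and span the background, so no difference in the share of strong peaks was detectable with so few members. In number, 23 of 73 stretches of 360 kb held 2 or fewer such intervals, and so did 26 of 80 stretches of 330 kb. The median score was 39.9 in the Antennapedia complex and 47.1 in the bithorax complex, against 34.7 on the rest of 3R. In each complex, 3 intervals scored above the median of 3R. Joining within 1 kb changed none of these values in the Antennapedia complex, while the 3 joined regions of the bithorax complex had a median score of 162, and 66.7% of them scored 100 or more.

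The highest score of the Antennapedia complex, 363.82, was in the lower part of the range of highest scores in 360 kb stretches, where 28 of 73 reached no more. The highest score of the bithorax complex, 666.63, was in the upper part, and 11 of 80 stretches of 330 kb held an interval as strong. The density of strong intervals alone was lower than on the rest of 3R by a ratio of 0.451 in the Antennapedia complex and 0.492 in the bithorax complex, and neither passed (exact tests, adjusted p = 0.676 each). For intervals scoring below 100, the ratios were 0.366 and 0.299, and both passed (exact tests, adjusted p = 0.0468 each). The split at 100 was made after the values were seen. The ratios of strong intervals rest on 2 intervals in each complex, and all these tests take intervals as independent. Whether the deficit differed between strong and weak intervals was not tested.

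The strongest interval of the bithorax complex was narrow for its score, a feature noticed after its values were seen. Its width of 1576 bp was below that of every one of the 50 other intervals nearest to it in score on the rest of 3R, which had scores from 468 to 940 and widths from 1936 to 6828 bp, with a median of 3376.5 bp. Over chromosome 4 and the arms X, 2L, 2R, 3L and 3R, 64 intervals scored at least 666.63. Their widths ran from 1576 to 11808 bp with a median of 3971.5 bp, so the interval in the bithorax complex was the narrowest of them. With its companion joined to it, the region measured 2106 bp. That is above the lowest width, 1936 bp, of the 50 intervals nearest in score, which were not joined to their own neighbours.

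The strongest interval of the Antennapedia complex was also on the narrow side, since 47 of the 50 intervals nearest to it in score were wider than its 1764 bp and 3 were narrower. The second interval of that complex, with a score of 50.73 and a width of 480 bp, had 47 wider and 2 narrower among its 50. Among the weak members, the third interval of the bithorax complex had 49 wider and 1 narrower among its 50, the fourth had 43 wider and 7 narrower, and the third of the Antennapedia complex had 41 wider and 6 narrower. The third interval of each complex was 205 bp wide, close to the lowest width in the list, 200 bp, which left little room for narrower ones. The other members lay nearer the middle or on the wide side. The first interval of the Antennapedia complex had 30 wider and 20 narrower, and the sixth had 24 wider and 26 narrower. The first interval of the bithorax complex was wider than 36 of its 50. The fifth interval of the bithorax complex was wider than 44 of the 50 nearest to it in score, and the fifth of the Antennapedia complex was wider than 42. The median width was 612 bp in the Antennapedia complex and 1114 bp in the bithorax complex, against 695 bp on the rest of 3R. Over the joined regions of the bithorax complex it was 2106 bp.

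**Figure D3:**
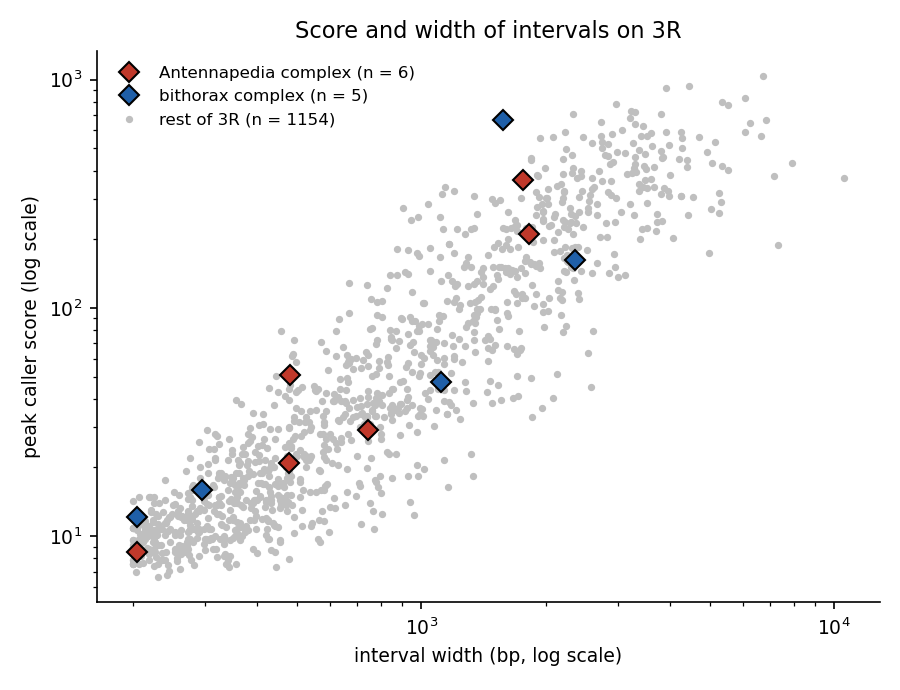
Score against width in bp (both axes logarithmic) for the intervals of the Antennapedia complex (red, n = 6), the bithorax complex (blue, n = 5) and the rest of 3R (grey, n = 1154). The bithorax interval with a score of 666.63 lies at the left edge of the cloud for its score, at 1576 bp.

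Among these few intervals, close neighbours were seen in the bithorax complex only. In the Antennapedia complex, no interval had another within 1 kb (0 of 6), and in the bithorax complex 4 of 5 did, against 42.5% of intervals on the rest of 3R. Joining within 1 kb thus left 6 single intervals in the Antennapedia complex, and 1 single interval and 2 pairs in the bithorax complex. On 3R as a whole, 671 of 874 joined regions were single intervals. The distance to the nearest other interval had a median of 24.5 kb in the Antennapedia complex, with a lowest value of 14.7 kb, and of 0.325 kb in the bithorax complex, against 2.55 kb on the rest of 3R. At a limit of 10 kb, set after the values were seen, 6 of 6 and 1 of 5 intervals had no other interval so near, against 26.8% on the rest of 3R. Members of a pair share their neighbour, so these counts do not come from independent intervals, and the difference was not tested.

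Both pairs in the bithorax complex joined a strong and a weak interval. The score of the stronger was 54.8 times that of the weaker in the pair from 12623769 to 12625875, where the stronger lay at the lower coordinate. It was 10.2 times in the pair from 12808145 to 12811064, where the stronger lay at the higher coordinate. Among the 139 regions of 2 intervals on the rest of 3R, this ratio had a median of 11.6 and an interquartile range of 4.67 to 25.4. The second pair was thus near the middle of that range, and 4 of the 139 regions reached the ratio of the first. The gaps within the pairs, 325 and 273 bp, were longer than the median of 185 bp in these regions.

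**Figure D4:**
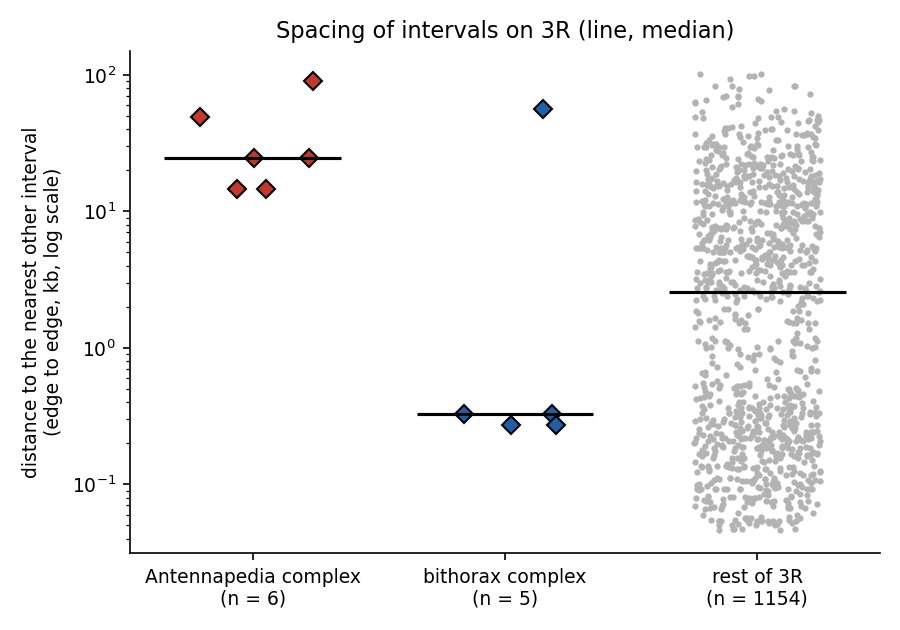
Distance from each interval to the nearest other interval, edge to edge in kb (vertical axis, logarithmic), in the Antennapedia complex, the bithorax complex and on the rest of 3R, with each median as a line. Points of the Antennapedia complex lie at 14.7 kb and above, and 4 of 5 points of the bithorax complex lie at 0.325 or 0.273 kb.

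Long runs without a peak made up most of both complexes. In the bithorax complex, no interval lay between 12625875 and 12808145, a run of 182 kb or 55.2% of the window and the 7th longest of 1164 gaps on 3R. A further 116 kb, from 12507921 to 12623769, was the 33rd longest. Only 2 of the 80 stretches of 330 kb held an empty run as long as 182 kb, with a mean of 101 ± 35.9 kb (SD) over these stretches. Runs were cut at the ends of a stretch, which shortens gaps that cross one, while the run of 182 kb lay whole within its window. In the Antennapedia complex, the longest run was 111 kb, from 2535720 to 2646271, followed by 90.6 kb, from 2646476 to 2737090, which were the 37th and 56th longest on 3R. Only the weakest interval of the complex, with a score of 8.49, separated them. The longest run of the Antennapedia complex was near the mean for stretches of its length, 104 ± 37.1 kb (SD), and 30 of 73 stretches held one as long.

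The gaps between neighbouring intervals had a median of 9.91 kb on 3R, with an interquartile range of 1 to 30.3 kb. In the Antennapedia complex all 5 gaps exceeded this median, from 14.7 to 111 kb. In the bithorax complex, 2 of the 4 gaps lay under 1 kb and the other 2 above 100 kb. With each window divided into 3 equal parts, the Antennapedia complex held 2, 1 and 3 intervals in its parts of 120 kb, and the bithorax complex held 1, 2 and 2 in its parts of 110 kb.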

How the data were processed

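Each interval was deposited with its position and a score that the authors took from their peak caller, a statistic that no header names. Per the file headers, coordinates are those of FlyBase release 5 and MACS is the source of the list. BWA, MACS2, the build BDGP5 and CASAVA (versions 1.7.0.2 and 1.7.0.3) appear in the submitters' processing notes. Their settings, the threshold, the input used and any pooling of libraries, not given in the sources used here, decide how weak a listed peak can be and how a broad region is split.

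Positions are as deposited. The first mitochondrial interval starts at 0, so starts may count from 0, and width is end minus start. Depth is unknown. The windows and the ways of describing them were chosen with earlier results of these data known. Every interval in them is described. Peak numbers were compared by length with two-sided exact binomial tests, adjusted by Benjamini-Hochberg over 3 tests at 0.05. Stretches were laid from the first interval of 3R, without overlap, leaving out those that touched a window, and are a description with no p. Joined regions carry their highest score. Alternatives were other joining distances, stronger or weaker intervals alone, midpoints, narrowed or widened windows, shifted stretches, and the span without its ends. Python 3.11.15, numpy 2.4.6, pandas 2.3.3, scipy 1.17.1 and matplotlib 3.10.9 were used. The tests were checked only on simulated intervals placed independently along 3R. That check does not cover the uneven spacing of the real intervals. No sequence is shown and the Su(Hw) motif was not searched, since no genome of release 5 was used.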

Additional observations from a re-analysis of the deposited data

How the results depend on the processing

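The lower density of the Antennapedia complex (ratio to the rest of 3R 0.391) kept its direction under every alternative run, but did not pass the exact test after joining within 500 bp (0.498), 1 kb (0.521) or 10 kb (0.789), with a window narrowed by 20 kb (0.440), for scores above the median of 3R (0.391) or of 100 or more (0.451). The bithorax complex (0.355) also kept its direction, and did not pass after joining within 10 kb (0.431), for scores above the median (0.427) or of 100 or more (0.492). Limiting the scores or joining leaves fewer units to test. In the Antennapedia complex joining removed none of the 6 intervals. The units on the rest of 3R fell from 1154 to 906, 865 and 571 after joining within 500 bp, 1 kb and 10 kb. The cause of the lost calls was not tested. Joining within 1 kb moved the bithorax ratio further down, to 0.284. The ratio between the complexes, which never passed, turned to 0.917 for scores above the median and for scores of 100 or more. The share of stretches with as few intervals moved to 15.1% and 31.5% for the Antennapedia complex at these score limits and to 0% without the outer 5% of the span, which gave 2.86% for the bithorax complex, and to 16.25% and 32.5% for the bithorax complex at these score limits. With shifted stretches, the share with as few intervals was 5.56% (4 of 72) for the Antennapedia complex and 2.53% (2 of 79) for the bithorax complex. Coverage ranks stayed within their counting range in the alternatives run. Medians of score and width were compared with the lowest to highest member, and shares of strong intervals with counting ranges such as 5.27 to 85.3%. Both ranges are too wide to test whether these values were stable. In the Antennapedia complex these values did not change in the alternatives run. Over the 3 joined regions of the bithorax complex, the median score was 162 against 47.1, and the median width 2106 against 1114 bp. The share of strong intervals there was 66.7% against 40%. With midpoints or a widened window, the bithorax values did not change. Limits on scores of 100 and the span without its ends for the stretches were chosen after seeing the data. No paired analysis was possible because the list carries no library's own values, and for that reason leaving out a replicate was not possible either.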
